A study of Mus musculus with 6 samples.

Results

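The *Zfp* genes examined here are the numbered mouse zinc finger genes with high read counts in brain tissue of mice that overexpressed the human lncRNA *AP1AR-DT* and of control mice. They were chosen by symbol, *Zfp* followed by a number, and selected on a mean of 1000 or more raw counts over the 6 libraries. Of the 380 genes with such a symbol among the 52390 genes listed, 113 met this mean, and all 113 are protein-coding and passed the filter on low counts. The 3 with the lowest means were *Zfp597* at 1034, *Zfp35* at 1044 and *Zfp654* at 1058 counts, while *Zfp13* at 973, *Zfp1* at 970 and *Zfp27* at 963 counts fell just short. The mean counts had a median of 1755 and reached 12181, and the 113 genes together took 0.511 to 0.538% of the counts of a library.

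A zinc finger of the C2H2 type is a short fold in which a pair of cysteines and a pair of histidines hold a zinc ion, and a row of such fingers can read a DNA sequence. Many of these proteins carry a KRAB domain at the N-terminus, which recruits the co-repressor TRIM28 (KAP1) and, through it, the histone methyltransferase SETDB1 and HP1 proteins, and so silences transposable elements and some genes. Others carry a SCAN domain, with which they pair with each other, and others again have only a few fingers and bind RNA, act in chromatin complexes or are not transcription factors at all. In the brain, members of the family are known for roles in neuronal differentiation, imprinting and myelination.

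All 6 mice were male C57BL/6, a common inbred strain. At 8 weeks of age they received a recombinant adeno-associated virus by injection into the mPFC, the medial prefrontal cortex. In the 3 AP1AR-DT_OE mice it carried *AP1AR-DT* (*AC109347.1*), and in the 3 control mice, which are labelled wild type, it was an empty vector without an insert. The human synapsin I promoter, which is neuron-specific, drove *AP1AR-DT*, and the CMV promoter drove the EGFP reporter of the vector, so that the expression of *AP1AR-DT* was directed to neurons. As a human gene *AP1AR-DT* has no row in the mouse table, which leaves the labels unchecked by its level. The tissue is labelled brain, and the study describes it both as mPFC and as cortical tissue. The deposited counts per gene summed to between 42061721 and 54668294 per library. The control libraries are numbered 1 to 3 as the mice are, and those of AP1AR-DT_OE mice are called A, B and C, because their columns do not give the mouse.

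Levels are given as CPM, read counts scaled to equal library size. Neuron markers were high in every library, with 6 of 6 tested and a summed level of 3545 to 3937 CPM in control and 3328 to 3730 CPM in AP1AR-DT_OE mice. Excitatory neuron markers differed more, with sums of 102, 137 and 543 CPM in control 1 to 3. In A, B and C they summed to 353, 598 and 171 CPM. Inhibitory neuron markers summed to 1011 to 2035 CPM in control and 1823 to 2085 CPM in AP1AR-DT_OE mice. Of the oligodendrocyte markers 2 of 6 were downregulated by the thresholds given below, and they summed to 10643 CPM in control 3 and to between 5048 and 6430 CPM in the other libraries. Of the microglia and the endothelial markers 2 of 6 each were upregulated, and of the astrocyte markers 1 of 6 was downregulated. The neuron and the excitatory neuron markers each held 1 upregulated and 1 downregulated gene. Of the inhibitory neuron and the striatal markers 0 were upregulated or downregulated. The microglia markers summed to 217 to 269 CPM in control and 225 to 317 CPM in AP1AR-DT_OE mice, and the endothelial markers to 76.7 to 96.8 and 94.6 to 130 CPM. Markers of other regions differed between single libraries, and 3 of the 5 choroid plexus and 4 of the 6 hypothalamic markers tested were downregulated. The 5 choroid plexus markers tested summed to 3652 CPM in control 3 and to between 43.1 and 66.0 CPM in the AP1AR-DT_OE libraries, with a control minimum of 60.5 CPM, and *Kcnj13* of the same list did not pass the filter on low counts. The 6 hypothalamic markers reached 591 CPM in control 2 and 73.3 CPM in control 3, against 3.88 CPM in control 1 and 5.90 to 25.4 CPM in AP1AR-DT_OE mice. The 6 striatal markers summed to 830, 179 and 330 CPM in control 1 to 3, and to 1531, 537 and 574 CPM in A, B and C. Although none was called and the sums overlapped, all 6 had a Log2FC (defined below) above 0, from 0.52 to 1.41, with a median of 1.02. The share of mitochondrial counts was 7.20 to 9.86% in control and 5.75 to 6.80% in AP1AR-DT_OE libraries. The part of these differences in the *Zfp* results was not tested, and in bulk tissue fewer cells of a type and less RNA per cell cannot be told apart.

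The promoters of 3 of the genes whose counts differed between the groups are shown because they hold CGCATGCG. These letters are the core of the sequence bound by NRF1, a transcriptional activator. The paper proposes that *AP1AR-DT* competes with NRF1 for binding at the *NEGR1* promoter, where it predicted NRF1 motifs that do not hold CGCATGCG. The motif CGCATGCG reads the same on both strands and is in capitals. The sequences are from RefSeq (GRCm38.p6), plus strand, written 5′ to 3′. For *Zfp346* and *Zfp428* they are the 250 bases upstream of the start site, chr13:55105072-55105321 and chr7:24506837-24507086, and for *Zfp638* the 30 bases around the motif just downstream of a start site, chr6:83914367-83914396.
Zfp346: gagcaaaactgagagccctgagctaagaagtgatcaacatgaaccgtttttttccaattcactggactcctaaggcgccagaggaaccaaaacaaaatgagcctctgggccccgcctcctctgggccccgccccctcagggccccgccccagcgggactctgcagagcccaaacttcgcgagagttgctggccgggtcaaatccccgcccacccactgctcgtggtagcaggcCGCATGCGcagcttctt
Zfp428: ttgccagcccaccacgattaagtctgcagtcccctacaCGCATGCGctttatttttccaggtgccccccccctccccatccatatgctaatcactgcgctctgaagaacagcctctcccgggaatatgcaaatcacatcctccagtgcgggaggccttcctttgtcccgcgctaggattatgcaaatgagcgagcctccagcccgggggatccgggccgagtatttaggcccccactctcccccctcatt
Zfp638: aggcgaagatgCGCATGCGtgtagtcccat

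The motif began 17 bases before the start site of *Zfp346* and 212 bases before that of *Zfp428*. In *Zfp638* it began 25 bases after a start site that lies inside the span of the gene. A RefSeq promoter, running from 250 bases before to 50 bases after the first start site listed, was matched by symbol for 89 of the 113 genes, and 7 of them (7.87%) held the motif. The share was 1.91% over 27025 promoters, 3.94% over the 5892 matched promoters of other genes with a mean of 1000 or more counts and 4.08% over 196 promoters of *Zfp* genes below that mean. Of the downregulated *Zfp* genes described next, 1 of 15 matched promoters held it, and of the upregulated, 2 of 5. The other *Zfp* genes with the motif, *Zfp329*, *Zfp334*, *Zfp639* and *Zfp664*, were neither. All these are matches of letters and no measurement of NRF1 binding.

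Differentially expressed genes (DEGs) had an unadjusted *P* under 0.05 and |Log2FC| above 0.32. Log2FC is AP1AR-DT_OE against control, from edgeR's quasi-likelihood test of 3 against 3 mice. Of the 113 *Zfp* genes, 17 (15%) were downregulated and 5 (4.42%) were upregulated. Over all 21844 genes tested, 7.15% were downregulated and 5.10% upregulated, and over the 8431 with a mean of 1000 or more counts 7.22% and 7.80%. The median Log2FC of the *Zfp* genes was nevertheless near 0, at -0.0043, with 55 values above and 58 below 0, beside -0.014 over all genes and 0.033 over the well-expressed ones.

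The groups did not overlap in 22 *Zfp* genes with lower and 17 with higher values in AP1AR-DT_OE mice (19.5% and 15%), where 12% and 10.4% of all genes tested and 13.3% and 16.4% of the well-expressed genes did so. No *Zfp* gene had a Benjamini-Hochberg adjusted *P* under 0.05 in edgeR, which 0.0275% of all genes reached, although 31 had an unadjusted *P* under 0.05. Such an unadjusted *P* was found in 15.1% of all genes tested and in 22.1% of the well-expressed genes. The adjusted edgeR *P* lay between 0.295 and 0.316 for the 17 downregulated and between 0.295 and 0.322 for the 5 upregulated genes. DESeq2 gave 5 genes an adjusted *P* under 0.05, which were *Zfp292* (0.00392), *Zfp281* (0.00618), *Zfp654* (0.00937), *Zfp638* (0.0294) and *Zfp346* (0.0448). Of the genes to which DESeq2 gave an adjusted *P*, 2.50% were under 0.05, and of the well-expressed ones 3.09%. Over all fits tried, the adjusted *P* of these 5 genes reached 0.661 to 0.695. The exact permutation test of a single gene, two-sided, cannot go below 0.1 with 3 mice against 3. Each edgeR or DESeq2 *P* sets the difference between the groups against the spread of the libraries within them. The labels name mice but no litters, surgeries or extractions, so any of these that differed between the groups cannot be told apart from the treatment.

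The 6 downregulated genes with the smallest *P* and no overlap were *Zfp281*, *Zfp292*, *Zfp654*, *Zfp638*, *Zfp106* and *Zfp770*, none of which has a KRAB match. *Zfp281* (ENSMUSG00000041483, chr1:136624901-136630053, plus strand, GENCODE vM21 on GRCm38) encodes a factor of the pluripotency network that binds GC-rich DNA. It had 44.8, 47.2 and 48.2 normalized CPM in control 1 to 3 and 32.3, 29.5 and 34.8 in A, B and C. Every AP1AR-DT_OE library was below every control, with means of 46.8 ± 1.73 and 32.2 ± 2.63 CPM (SD, n = 3 each), a Log2FC of -0.54 ± 0.101 (SE), an edgeR *P* of 0.00104 and the smallest possible exact permutation *P*, 0.1, which holds for every gene below without overlap.

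*Zfp292* (ENSMUSG00000039967, chr4:34803113-34882960, minus strand) encodes a large protein of 2698 residues whose human counterpart is mutated in a neurodevelopmental disorder. Its values were 40.7, 50.2 and 42.5 CPM in control and 27.7, 22.5 and 29.9 CPM in AP1AR-DT_OE mice. The gap between the groups was wider than the spread within either, and its Log2FC of -0.74 ± 0.143 (edgeR *P* = 0.00128, exact permutation *P* = 0.1) was the lowest among the called *Zfp* genes.

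*Zfp654* (ENSMUSG00000047141, chr16:64780347-64851652, minus strand), the called gene with the lowest GC content, 36.9% in its longest transcript, had 24.6, 26.9 and 25.3 CPM in control and 16.4, 16.3 and 18.9 CPM in AP1AR-DT_OE mice. Libraries A and B were nearly equal and C was the nearest to the controls, with a Log2FC of -0.57 ± 0.112 (edgeR *P* = 0.00135, exact permutation *P* = 0.1). *Zfp770* (ENSMUSG00000040321, chr2:114193461-114201469, minus strand) had 27.6, 28.0 and 26.1 CPM in control and 19.2, 17.2 and 22.0 CPM in AP1AR-DT_OE mice. It was lower in each AP1AR-DT_OE library, with a Log2FC of -0.48 ± 0.124, an edgeR *P* of 0.00559 and an exact permutation *P* of 0.1.

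Of the genes for proteins that bind RNA or act in mitosis, a list with 4 *Zfp* genes, 2 were downregulated and 1 was upregulated. Over all 113 *Zfp* genes these shares were 15% and 4.42%, and 4 genes are too few to set beside them. *Zfp638* (ENSMUSG00000030016, chr6:83867109-83989550, plus strand) encodes a nuclear protein that binds cytidine-rich sequences and is known for silencing unintegrated retroviral DNA together with the HUSH complex. Its values of 60.8, 61.8 and 63.4 CPM in control differed little, and those of AP1AR-DT_OE mice, 43.1, 36.6 and 49.4 CPM, were all lower and more spread (Log2FC -0.53 ± 0.124, edgeR *P* = 0.00378, exact permutation *P* = 0.1). *Zfp106* (ENSMUSG00000027288, chr2:120506820-120563843, minus strand), an RNA-binding protein required to maintain motor neurons and muscle innervation, had 222, 218 and 253 CPM in control and 175, 169 and 189 CPM in AP1AR-DT_OE mice. The groups were separate (Log2FC -0.38 ± 0.0960, edgeR *P* = 0.00529, exact permutation *P* = 0.1). However, 24.2% of the 100-base stretches of its transcript occur in transcripts of other genes, most often *Gm26899*, so reads could have been split between genes.

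*Zfp346* (ENSMUSG00000021481, chr13:55105311-55134825, plus strand), or JAZ, binds double-stranded RNA and was the upregulated *Zfp* gene with the smallest *P*. The controls were close together at 29.3, 29.7 and 30.1 CPM, and libraries A, B and C had 42.2, 44.1 and 35.3 CPM. All AP1AR-DT_OE libraries were above all controls, with means of 29.7 ± 0.385 and 40.5 ± 4.62 CPM (SD, n = 3 each), a Log2FC of 0.45 ± 0.112, an edgeR *P* of 0.00503 and an exact permutation *P* of 0.1. The remaining gene of the list, *Zfp207*, which encodes the spindle protein BuGZ, had a Log2FC of -0.064 (edgeR adjusted *P* = 0.789).

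*Zfp444* (ENSMUSG00000044876, chr7:6172226-6193811, plus strand) is a SCAN gene and had 48.1, 51.6 and 52.0 CPM in control and 63.0, 67.6 and 59.0 CPM in AP1AR-DT_OE mice. Its Log2FC of 0.32 ± 0.0939 (edgeR *P* = 0.0108, exact permutation *P* = 0.1) lay at the DEG threshold. *Zfp579* (ENSMUSG00000051550, chr7:4983483-4996158, minus strand) had 25.0, 21.1 and 24.9 CPM in control and 32.3, 31.9 and 28.6 CPM in AP1AR-DT_OE mice (Log2FC 0.39 ± 0.115, edgeR *P* = 0.0115, exact permutation *P* = 0.1). In both genes the groups were separate, with C the AP1AR-DT_OE library nearest to the controls. The other upregulated genes, *Zfp523* (Log2FC 0.44, adjusted *P* = 0.296) and *Zfp428* (0.34, adjusted *P* = 0.322), had overlapping groups.

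**Figure D1:**
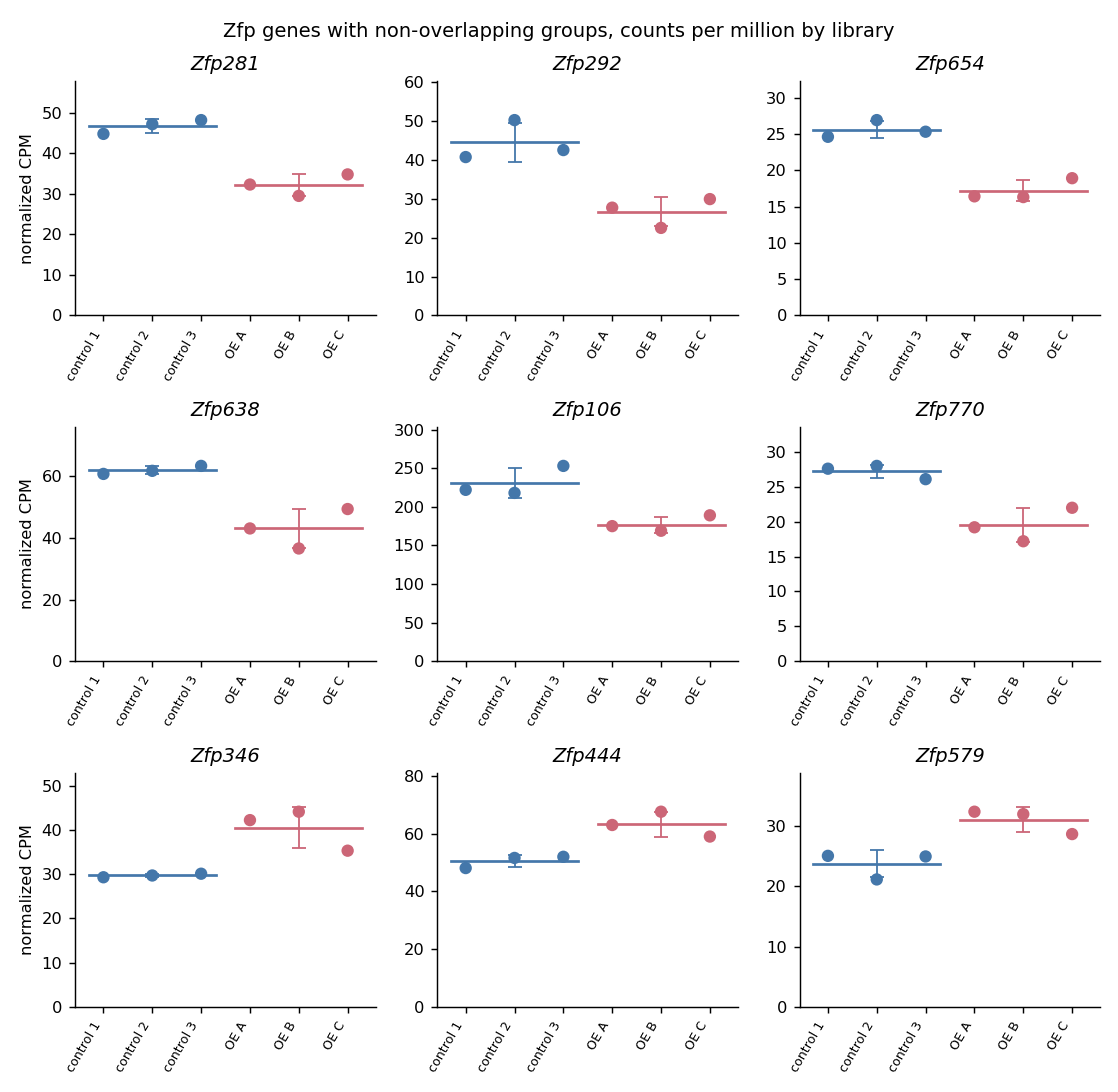
Normalized CPM (vertical axis, from 0) of the 6 downregulated *Zfp* genes with the smallest *P* and the 3 upregulated ones, all with non-overlapping groups, in the 3 control (blue) and 3 AP1AR-DT_OE libraries (red, OE), with 1 point per library, a line at the group mean and bars of 1 SD. In the 6 genes of the upper rows all AP1AR-DT_OE libraries lie below all controls, in the 3 of the bottom row above, and in all 9 library C lies nearest to the controls.

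The members with a KRAB match in their translated coding sequence numbered 31. Of these, 9 (29.0%) were downregulated and 0 upregulated, with a median Log2FC of -0.25 and 23 of 31 values below 0. Among the 82 without a match, 8 (9.76%) were downregulated and 5 (6.10%) upregulated, with a median of 0.062. The downregulated KRAB genes were *Zfp26* (Log2FC -0.50), *Zfp68* (-0.40), *Zfp267* (-0.39), *Zfp157* (-0.38), *Zfp799* (-0.38), *Zfp846* (-0.36), *Zfp426* (-0.35), *Zfp655* (-0.35) and *Zfp617* (-0.34). *Zfp26* had 27.7, 31.8 and 24.0 CPM in control and 19.7, 17.6 and 21.8 CPM in AP1AR-DT_OE mice, with every AP1AR-DT_OE library below every control. In *Zfp267* the groups overlapped, and 17.2% of the stretches of *Zfp26* and 32.9% of those of *Zfp617* occur in transcripts of other genes.

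The KRAB genes differed from the others in composition too. The median GC content of the longest transcript was 42.1% in the KRAB genes and 50.4% in the rest. Under 42% GC, 6 of 14 KRAB and 6 of 14 other *Zfp* genes were downregulated (42.9% each), both with a median Log2FC of -0.29. From 42 to 48% these were 3 of 10, with a median of -0.31, and 2 of 18, with a median of -0.013. The 4 KRAB genes from 48 to 54% and the 3 at 54% or more held 0 downregulated genes. With each library adjusted for GC content, 0 of the 31 KRAB genes were downregulated, and their median was -0.098 beside -0.011 in the rest. The adjustment removes any trend with GC content from a library, whatever its source, so it cannot tell sources of these calls apart.

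The number of fingers found ranged from 0 to 36, with a median of 9. Downregulated genes were 3 of the 22 genes with 0 to 3 fingers, 5 of the 39 with 4 to 9, 7 of the 32 with 10 to 15 and 2 of the 20 with 16 or more, so the shares did not follow the number of fingers. The 4 SCAN genes were 1 upregulated (*Zfp444*), 1 downregulated (*Zfp24*, known for its part in myelination, Log2FC -0.45) and 2 that were not called, *Zfp397* and *Zfp263*. By position, 24 of the 113 genes lie on chromosome 7, with 3 upregulated, 0 downregulated and a median Log2FC of 0.18. The 9 genes on chromosome 5 held 4 downregulated genes, with a median of -0.17. Their median GC content was 42.5%, beside 52.6% for the genes on chromosome 7. Such shares were not particular to chromosome 5, since 3 of the 8 genes on chromosome 9 and 2 of the 4 on chromosome 2 were downregulated. On chromosomes 6 and 8 these were 1 of 11 and 1 of 10. No comparison was made with all genes on a chromosome, so an effect of position was not tested. With the GC content correction, 0 genes on chromosome 7 were upregulated (median 0.050) and 0 on chromosome 5 were downregulated (median -0.061).

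The 113 *Zfp* genes can be set beside *Zfp* genes below the mean of 1000 counts, of which 235 were tested. Of these, 54 (23.0%) were downregulated and 7 (2.98%) upregulated, with a median Log2FC of -0.25. The 171 with a KRAB match held 47 of the downregulated genes and had a median of -0.34, against 6 of 58 and -0.058 without one. They were also lower in GC, with a median of 41.4% in the KRAB genes and 50.0% in the others. The 16 well-expressed *Zbtb* genes, which pair zinc fingers with a BTB domain, held 3 downregulated (18.8%) and 0 upregulated genes, with a median of -0.20. Over all well-expressed genes 7.22% were downregulated. With the GC content correction, 14 of the 235 *Zfp* genes were downregulated and 5 upregulated, with a median of -0.11, 10 of the downregulated being KRAB genes. The *Zbtb* genes then held 1 downregulated gene and had a median of -0.063.

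Log2FC rose with the GC content of the longest transcript. Across the 113 genes, which share all libraries and are not independent replicates, Pearson's r was 0.54 and Spearman's rho 0.63, and across 8314 other well-expressed genes 0.48 and 0.62. The 17 downregulated *Zfp* genes had a GC content of 36.9 to 47.1%, and the 5 upregulated of 52.0 to 64.4%, so their ranges were apart.

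**Figure D2:**
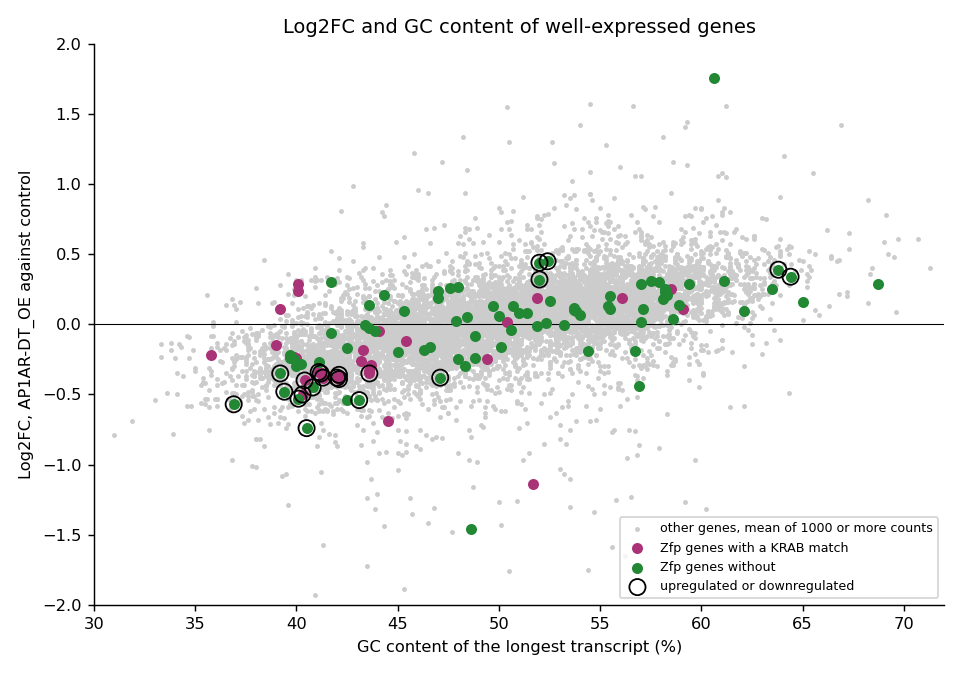
Log2FC of AP1AR-DT_OE against control (vertical axis) and GC content of the longest transcript (horizontal axis, %) for the 113 *Zfp* genes, with (purple) or without (green) a KRAB match, and for other genes with a mean of 1000 or more counts (grey; 16 of them lie outside the axis at a Log2FC beyond 2 in size). Circles mark upregulated and downregulated *Zfp* genes, which lie at 52.0% GC or more and at 47.1% or less, and the *Zfp* genes follow the slope of the grey cloud.

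Under 42% GC, 12 of 28 *Zfp* genes (42.9%) were downregulated, beside 261 of 868 other well-expressed genes (30.1%), with medians of -0.29 and -0.27. From 42 to 48% GC these were 5 of 28 (17.9%) beside 260 of 2322 (11.2%), with medians of -0.17 and -0.11. From 48 to 54% GC, 3 of 28 *Zfp* genes (10.7%) were upregulated beside 139 of 2696 (5.16%). At 54% or more, 2 of 29 (6.90%) were upregulated beside 484 of 2428 (19.9%), with medians of 0.20 and 0.21, and 13 of the 29 (44.8%) had higher values without overlap, beside 33.2% of the other genes. Within these ranges of GC content, the medians of the *Zfp* genes and of the other genes were 0.012 to 0.051 apart.

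The libraries of a group were not equal in this. Under 42% GC the median deviation of the *Zfp* genes from their mean over the libraries, in log2 CPM, was 0.19, 0.20 and 0.10 in control 1 to 3, and -0.17, -0.29 and 0.0017 in A, B and C. At 54% GC or more it was -0.042, -0.12 and -0.14 in control and 0.10, 0.16 and 0.023 in A, B and C. The other well-expressed genes gave 0.097, 0.14 and 0.17 against -0.15, -0.22 and -0.023 under 42% GC. Library B was thus the farthest from the controls and C stood between the groups at both ends. Of the 17 downregulated *Zfp* genes, 14 were lowest in B, 3 in A and 0 in C. In all 22 called genes C was the AP1AR-DT_OE library nearest to the control mean.

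**Figure D3:**
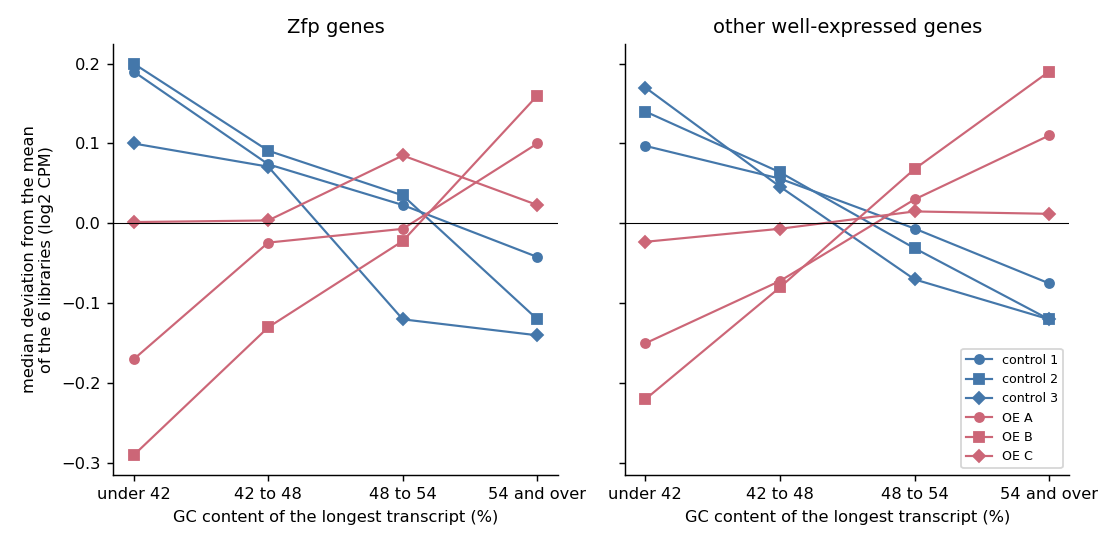
Median deviation from the mean of the 6 libraries (vertical axis, log2 CPM) in 4 ranges of GC content (horizontal axis, % of the longest transcript) for the *Zfp* genes (left) and the other well-expressed genes (right), with 1 line per library, control in blue and AP1AR-DT_OE (OE) in red. The controls fall and A and B rise with GC content in both panels, and C stays between -0.023 and 0.085.

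With a GC curve of the longest transcript fitted to each library and removed, 3 *Zfp* genes were downregulated and 5 upregulated, where 4.34% and 2.86% of all genes tested were so. The correction also takes away any difference between the groups that follows GC content, so a loss of calls at low and high GC is partly built in. *Zfp281* (Log2FC -0.35) and *Zfp292* (-0.48) stayed downregulated, and *Zfp346* (0.36) and *Zfp523* (0.36) upregulated, with adjusted edgeR *P* of 0.534 to 0.541. *Zfp536*, which restrains neuronal differentiation, was downregulated in this fit (-0.60, adjusted *P* = 0.539), and *Zfp369* (0.51, adjusted *P* = 0.534), *Zfp622* and *Zfp821* were upregulated. The other 18 genes called without the correction were not called, among them *Zfp654* (-0.23, adjusted *P* = 0.554), *Zfp770* (-0.20, adjusted *P* = 0.578) and *Zfp579* (0.071, adjusted *P* = 0.838). *Zfp106*, *Zfp638* and *Zfp444* kept an unadjusted edgeR *P* under 0.05, but their Log2FC of -0.31, -0.26 and 0.24 no longer passed the threshold. With the mean GC content over all transcripts of a gene, an alternative chosen after seeing the data, 6 were downregulated (*Zfp106*, *Zfp292*, *Zfp395*, *Zfp397*, *Zfp423* and *Zfp536*) and 3 upregulated (*Zfp239*, *Zfp346* and *Zfp369*). *Zfp292* and *Zfp346* were the 2 *Zfp* genes called in all 16 fits.

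Leaving out libraries moved the counts of the *Zfp* genes and also those of all genes tested, which are given as ranges in the last section. Without library B, 8 *Zfp* genes were downregulated and 3 upregulated, without A 11 and 4, without C 27 and 12. Without control 2, which held the hypothalamic markers, these were 11 and 6, and without control 3, which held the choroid plexus markers, 15 and 4. *Zfp26*, *Zfp281*, *Zfp292*, *Zfp638*, *Zfp654* and *Zfp770* were downregulated and *Zfp346* and *Zfp579* upregulated whichever library was left out.

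**Figure D4:**
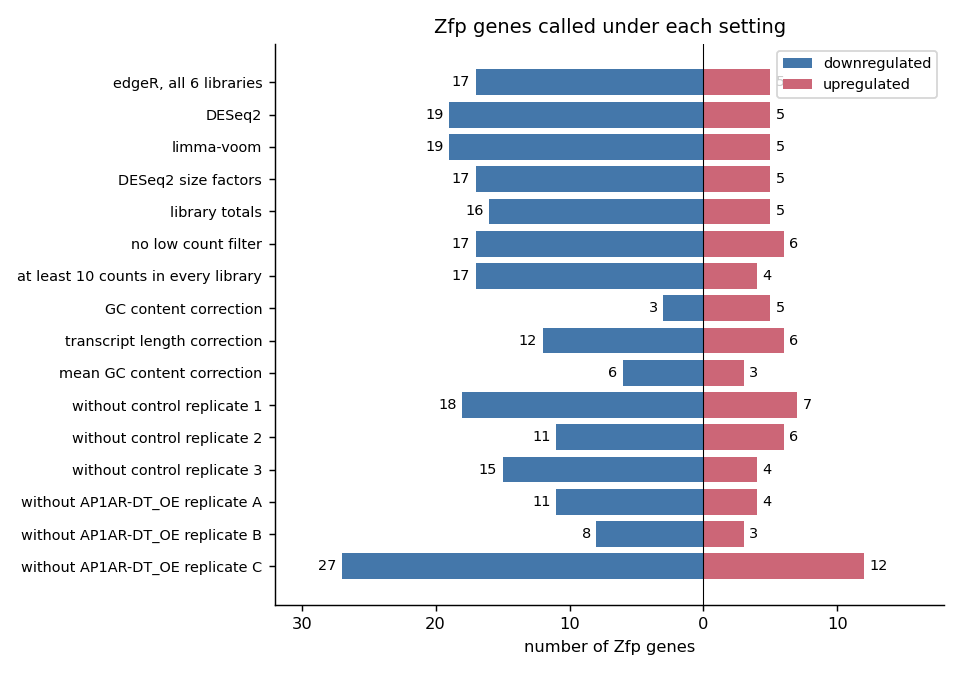
Number of the 113 *Zfp* genes downregulated (blue, to the left) and upregulated (red, to the right) in edgeR with all 6 libraries and in 15 alternatives. The downregulated genes run from 3 with the GC content correction to 27 without AP1AR-DT_OE replicate C, and the upregulated from 3 to 12.

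Of the *Zfp* genes for partners of chromatin complexes, 2 of 11 (18.2%) were downregulated, near the 15% of all 113 *Zfp* genes. Of the 11, 0 were upregulated, and their median Log2FC was -0.25. Beside *Zfp281*, this was *Zfp644*, whose protein binds the histone methyltransferases G9a and GLP. It had 43.1, 45.8 and 49.0 CPM in control and 36.0, 32.8 and 39.3 CPM in AP1AR-DT_OE mice, without overlap (Log2FC -0.35 ± 0.108, edgeR *P* = 0.0135, exact permutation *P* = 0.1). After the GC content correction its Log2FC was -0.061, and without control 3 or without B it was -0.29. The genes of the complex of ZNF592, ZNF687 and ZNF532 with ZMYND8 had Log2FC of -0.013, 0.13 and -0.041 for *Zfp592*, *Zfp687* and *Zfp532*. *Zfp148* (-0.25, adjusted *P* = 0.342), *Zfp451*, a SUMO ligase (-0.27, adjusted *P* = 0.378), *Zfp462* (-0.25, adjusted *P* = 0.443), *Zfp516* (0.092) and *Zfp609* (0.012) were not called.

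Of 12 *Zfp* genes for neural and developmental factors, *Zfp292* was the 1 downregulated (8.33%, beside 15% of all 113 *Zfp* genes). None of the 12 was upregulated, and their median Log2FC was -0.18. *Zfp365*, which encodes the DISC1-binding protein DBZ, had the highest mean count of all. Its levels of 243, 171 and 248 CPM in control and 301, 314 and 180 CPM in AP1AR-DT_OE mice overlapped, with control 2 and C the lowest (Log2FC 0.26 ± 0.238, edgeR adjusted *P* = 0.613). The summed excitatory neuron markers were also higher in control 3 (543 CPM), A (353 CPM) and B (598 CPM) than in control 1 (102 CPM), control 2 (137 CPM) and C (171 CPM), so they moved with *Zfp365* in all libraries but control 1, and their part in its level was not tested. Per kilobase of the longest transcript, *Zfp771* at 59.7, *Zfp365* at 57.0 and *Zfp706* at 48.3 CPM had the highest mean levels. *Zfp706*, which encodes a small protein of 76 residues and had the second highest mean count, stood at 214 ± 25.3 CPM in control and 213 ± 9.61 CPM in AP1AR-DT_OE mice (SD, n = 3 each).

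*Zfp423* (Log2FC -0.19) and *Zfp521* (-0.16), closely related partners of EBF factors, were not called, nor were *Zfp608* (-0.24), *Zfp704* (-0.30, edgeR adjusted *P* = 0.339), *Zfp422* (-0.023) and *Zfp746* (0.19), which encodes the parkin substrate PARIS. *Zfp445*, a KRAB protein that guards imprinted regions, had 111, 138 and 106 CPM in control and 110, 88.5 and 115 CPM in AP1AR-DT_OE mice, with overlap (Log2FC -0.18, edgeR adjusted *P* = 0.556).

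Of the machinery with which KRAB proteins silence DNA, 29 genes were tested, of which 3 (10.3%) were downregulated and 0 upregulated. Over all genes tested these shares were 7.15% and 5.10%. The median Log2FC of the 29 genes was -0.14. *Trim28* itself had 112, 110 and 99.9 CPM in control and 129, 125 and 112 CPM in AP1AR-DT_OE mice (Log2FC 0.18, edgeR adjusted *P* = 0.392), and *Setdb1* had a Log2FC of 0.11 (adjusted *P* = 0.595). *Mphosph8*, a subunit of the HUSH complex, was downregulated from 24.2, 26.3 and 31.3 CPM to 18.1, 17.5 and 20.8 CPM (Log2FC -0.53, edgeR *P* = 0.00583, exact permutation *P* = 0.1). *Trim24* (-0.34, adjusted *P* = 0.295) and the chromatin remodeler *Atrx* (-0.42, adjusted *P* = 0.296) were downregulated in the same test, also without overlap. The count was 5 without control 1, 1 without control 3 and 0 with the mean GC content correction.

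A further set of *Zfp* genes differed between libraries of the same group. The values of a gene ranged over the 6 libraries by a median of 1.46-fold, beside 1.39-fold in other well-expressed genes. In 10 of the 113 (8.85%) the range was over 2-fold, beside 11.1% of those genes. In 7 genes (6.19%) the range was over 4-fold, beside 231 of 8318 other well-expressed genes (2.78%). *Zfp91*, which encodes a ubiquitin ligase of the non-canonical NF-κB pathway, had 101, 1.51 and 127 CPM in control and 1.06, 81.1 and 1.33 CPM in AP1AR-DT_OE mice. It lay between 81.1 and 127 CPM in 3 libraries and between 1.06 and 1.51 CPM in the other 3, with both groups split, a range of 120-fold. The adjusted edgeR *P* was 0.723 over all libraries, and without B it was 0.661 with a Log2FC of -6.00, at which the gene was called downregulated. *Cntf*, which lies within its span on the same strand, had 0 counts in every library.

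*Zfp60* had 46.0, 0.843 and 39.2 CPM in control and 33.6, 26.7 and 44.5 CPM in AP1AR-DT_OE mice. *Zfp260* (2.55 CPM) and *Zfp788* (3.13 CPM) were low in the same library, control 2, where the other 5 libraries had at least 33.2 and 21.9 CPM. These 3 genes lie on chromosome 7, at chr7:27731389-27753702, chr7:30094777-30107622 and chr7:41633203-41651530, all on the plus strand. Chromosome 7 holds 24 of the 113 genes. Between these positions, *Zfp507* was also lowest in control 2 (17.8 CPM), while *Zfp536* (24.0 CPM) was not. In *Zfp46* the low libraries were A (7.20 CPM) and B (5.27 CPM), with 37.2 to 43.0 CPM in the controls and 41.8 CPM in C. In *Zfp639* it was B, at 8.33 CPM. Over all libraries edgeR called none of *Zfp91*, *Zfp60*, *Zfp260*, *Zfp788*, *Zfp46* and *Zfp639*, while limma-voom called *Zfp46* as downregulated (Log2FC -1.78, adjusted *P* = 0.283). Their edgeR Log2FC had standard errors of 0.414 in *Zfp639* to 1.81 in *Zfp91*. Leaving out the library that differed from its group called *Zfp46* (without C, Log2FC -2.66, edgeR adjusted *P* = 0.0395) and *Zfp788* (without control 2, -0.40, adjusted *P* = 0.449) as downregulated. Leaving out any other single library called neither gene.

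*Zfp703* (ENSMUSG00000085795, chr8:26977325-26981461, plus strand), a co-repressor of the NET family, was the gene with the highest Log2FC, 1.76 ± 0.861. It had 5.04, 5.82 and 51.3 CPM in control and 64.2, 85.5 and 61.0 CPM in AP1AR-DT_OE mice. The groups did not overlap, but control 3 lay near the AP1AR-DT_OE libraries and the adjusted edgeR *P* was 0.375. Without control 3 the Log2FC was 3.70 and the adjusted edgeR *P* 0.00796, and limma-voom over all libraries gave 2.54 with an adjusted *P* of 0.274. Leaving out any other single library gave a Log2FC of 1.30 to 1.86, an adjusted edgeR *P* of 0.383 to 0.692 and no call. Control 3 is the control that differed from its group, so a smaller *P* without it was to be foreseen. *Gm45371*, an antisense gene within the span of *Zfp703*, had 0 counts in every library.

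**Figure D5:**
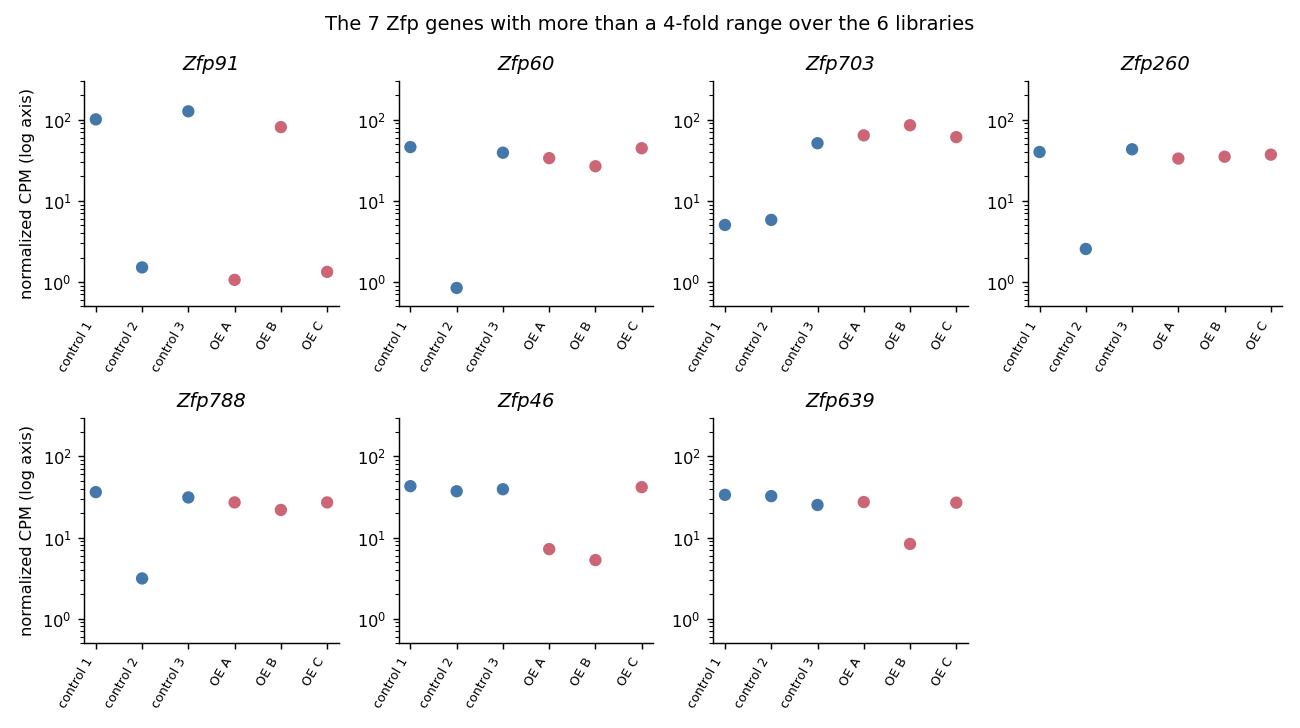
Normalized CPM (vertical axis, log scale) of the 7 *Zfp* genes with more than a 4-fold range over the libraries, in control (blue) and AP1AR-DT_OE (red, OE) libraries, with 1 point per library. *Zfp91* splits both groups, *Zfp60*, *Zfp260* and *Zfp788* are low in control 2, *Zfp46* is low in A and B, *Zfp639* is low in B and *Zfp703* is low in control 1 and 2.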

How the data were processed

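Brain RNA-seq of 3 AP1AR-DT_OE and 3 control mice was analysed. Per its methods, the study mapped reads to GRCm38 with Bowtie2 and took gene values from StringTie, whereas the submitters' processing notes name mm9, TopHat2 2.0.4, HTSeq, Cuffdiff and edgeR 2.6.12, so which tools made the counts is unresolved. The authors deposited whole-number counts per gene, without normalization. Strand use is not given in the sources used here. The table's other columns, the authors' DESeq2 comparison (mean normalized count, fold change, its error, Wald statistic and P-values), were not used. Library totals were 42061721 to 54668294 counts.

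Counts were tested in R 4.3.3 with edgeR 4.0.16 (filterByExpr, TMM, quasi-likelihood F-test, two-sided, Benjamini-Hochberg adjustment over all 21844 genes tested, no covariate). The common biological coefficient of variation was 0.313. Normalized CPM use the TMM factors. GC content, length and coordinates come from GENCODE vM21, the first 2 from the longest transcript. KRAB, SCAN and finger patterns were searched in translated GENCODE coding sequences of 21826 genes, and 100-base stretches in the transcripts of other genes. For the GC and length corrections, a natural spline (5 degrees of freedom) over 14012 genes gave each library's offsets. Of the models, the edgeR fit without GC or length correction alone was tested on simulated counts. Alternatives were DESeq2 1.42.0, limma 3.58.1 (voom), DESeq2 size factors, library totals, 2 low count filters, GC and length corrections, other mean count limits and leaving out each library.

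The genes named are the *Zfp* genes called with the smallest *P* and no overlap (6 in each direction, where available), any with an adjusted *P* under 0.05, the 3 with the highest mean count, those next to the mean count limit, those on the role lists and the silencing genes called. Those with a range over 4-fold, *Trim28*, *Setdb1* and the other called genes were named after their values were seen. The genes and lists were chosen with earlier results of these data known. Python 3.11.15, pandas 2.3.3, scipy 1.17.1 and matplotlib 3.10.9 were used.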

Additional observations from a re-analysis of the deposited data

How the results depend on the processing

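For the 36 genes named by rule, the 15 alternatives gave 488 values on the same side of the thresholds, 35 no longer called, 17 newly called and 0 called values of opposite sign. Downregulated *Zfp* genes (17) numbered 3 after the GC content correction, 6 after the mean GC content correction (chosen after seeing the data), and 8 to 27 with 1 library left out. Upregulated ones (5) were 3 after the mean GC content correction and 3 to 12 with 1 library left out. With a mean of 500 or more counts, 33 and 8 of 200 *Zfp* genes were downregulated and upregulated, with a median Log2FC of -0.067, and with 2000 or more counts 4 and 2 of 48. The median of the *Zfp* genes was 0.024 after the transcript length correction, -0.050 after the mean GC content correction and between -0.056 and 0.020 with 1 library left out. All upregulated genes (1113) were 624 and 642 after the GC and mean GC content corrections and 594 to 1623 with 1 library left out, and all downregulated genes (1562) were 946, 915 and 836 to 1950. Adjusted *P* under 0.05 was reached by 5 *Zfp* genes in DESeq2 and by 0 to 1 with 1 library left out, *Zfp703* without control 3 and *Zfp46* without C. The silencing genes called (3) were 2 after the GC content correction, 0 after the mean GC content correction and 1 to 5 with 1 library left out. No paired analysis was possible because the groups share the mouse number 3 alone and the AP1AR-DT_OE columns carry no mouse numbers.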
